A study of Mus musculus with 8 samples.

Results

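The genes described here specify germ cells in the mouse embryo and keep them alive. They were chosen by name, as every probe whose gene name on the array is Kit, Kitl, Prdm1, Prdm14, Dppa3, Nanos3, Dnd1, Ifitm1 or Ifitm3. Of these 9 genes 8 had a probe, out of 27677 gene names on the array. Prdm14 had no probe under that name and was not analysed here. There were 9 probes in all, because Kitl had 2. The authors' deposited table places Kit on chromosome 5, Kitl and Prdm1 on chromosome 10, Dppa3 on chromosome 6, Nanos3 on chromosome 8, Dnd1 on chromosome 18, and Ifitm1 and Ifitm3 on chromosome 7. The sources used here do not say where the probes lie in the transcripts.

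The cells were labelled primordial germ cells and came from V6.5 mouse embryonic stem cells, a line of mixed C57BL/6 and 129SV background. They carried a fusion of Dazl with GFP and V5, were depleted of feeder cells and were kept for 12 days in differentiation medium. DAZL binds RNA in germ cells, and RNA immunoprecipitation (IP) recovers the RNA that comes down with it. Lysates were native, without ultraviolet crosslinking. The groups were a GFP IP and a V5 IP, with an antibody to each of the tags on the fusion, a mock IP with normal mouse IgG, and input, the total RNA of the cells. Each group had 2 one-colour arrays, and all 4 groups carried the fusion, so there is no sample without it. What drives the fusion, and whether germ cells were sorted from the other cells of the culture, are not given in the sources used here. Whether the 2 arrays of a group came from separate cultures is not given either, so every p-value rests on array-to-array spread that may be technical.

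In the mouse, primordial germ cells are set aside when bone morphogenetic protein signals from neighbouring tissue induce Prdm1 and Prdm14 in a few cells of the early embryo. Dppa3, Nanos3, Dnd1 and the membrane proteins Ifitm1 and Ifitm3 mark or protect these cells, and Kit ligand on the surrounding cells keeps them alive through its receptor Kit. DAZL acts later in the same lineage, mostly by binding the 3′ untranslated regions of mRNAs and changing their translation.

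Values are log2 of the background-corrected spot intensity minus the 75th percentile of the array, so that 0 is the level of that percentile. A value therefore compares an RNA with the other RNA on its array, and is not an amount recovered. Between 61.3% and 70.5% of the probes were well above background on an array. All 8 genes were well above background on all 8 arrays. The 75th percentile was an intensity of 352 on mock IP replicate 1, and between 641 and 1130 on the other arrays. Mock IP replicate 1 stood apart in another way too. The summed linear level of 10 fibroblast and feeder cell markers, in multiples of the 75th percentile, was 18.3 and 11.5 in GFP IP, 20.1 and 11.7 in V5 IP, 71.0 and 19.5 in mock IP, and 22.0 and 18.2 in input, with replicate 1 first. All 10 were well above background in input. Fn1 was the brightest of the 10 on each array, at 5.51 on mock IP replicate 1 and 2.99 on input replicate 1. Col1a1, Col3a1, Thy1 and Pdgfrb were also higher on mock IP replicate 1 than on input replicate 1. Col1a2 was level (2.68 and 2.69), and Pdgfra, Dcn, Lum and Postn were lower. The sum thus rests largely on Fn1 and does not show a rise of all 10. Results against mock IP are therefore also given without that array.

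For the labelled cell type, 6 germ cell markers outside the set had a probe, Dazl, Ddx4, Tfap2c, Alpl, Fut4 and Pou5f1. All 6 were well above background on every array. Between 61.3% and 70.5% of all probes were too on an array, and Dazl is part of the fusion. Detection of these 6 therefore does not establish the cell type. Dazl itself averaged 4.27 in GFP IP, 4.18 in V5 IP, 1.55 in mock IP and 2.88 in input. Of markers of other cells, 6 of 7 endoderm, 8 of 8 mesoderm and endothelium, 6 of 7 neuroectoderm and 4 of 6 blood genes were well above background on both input arrays. Ttr of endoderm and Hba-x and Ptprc of blood were at background on both, and Neurod1 of neuroectoderm was above it on 1. In bulk RNA such as this, fewer cells of a type and less RNA per cell cannot be told apart.

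Kit and Prdm1 had a higher signal in both tag IPs than in mock IP, relative to the rest of each array. Nanos3, Ifitm1 and Ifitm3 were lower than in mock IP. In the fit without slides Dppa3, Dnd1 and Kitl did not pass. With the replicate number as a block, Dppa3 passed as higher in both tag IPs and Dnd1 in GFP IP, and Kitl in neither. In GFP IP against mock IP 2 of the 8 genes were higher, where 16.3% of all 19032 tested genes were, and 3 were lower, where 26.5% of all genes were (limma, Benjamini-Hochberg adjusted p under 0.05 over all genes). V5 IP against mock IP gave the same counts, 2 higher and 3 lower, where 14.6% and 21.4% of all genes were. Counted by arrays alone, both GFP IP arrays lay above both mock IP arrays for 3 genes (23.8% of all genes) and below both for 3 (48.2%), and both V5 IP arrays for 2 (22.3%) and 3 (47.2%). The set thus holds calls in both directions, and counts of 2 and 3 in 8 genes are not set apart from those shares. The median log2 fold change of the 8 genes was 0.24 in GFP IP and 0.23 in V5 IP, against -0.44 for all genes in both. A gene at -0.44 therefore moved with the bulk of the array. When arrays were instead centred on their median gene, GFP IP had 3351 genes up and 2873 down and V5 IP had 2833 up and 1557 down. Scaling to the 75th percentile gave 3102 up and 5043 down for GFP IP, and 2776 up and 4066 down for V5 IP. Once the replicate number was a block, 4 of the 8 rose and 3 fell in GFP IP, where 3969 and 7645 of all genes were. In V5 IP the block gave 3 higher and 3 lower, where 3693 and 7311 of all genes were. Without mock IP replicate 1, GFP IP had 2 of the 8 higher and 1 lower, where 1711 and 1042 of all genes were. V5 IP then had 2 higher and 0 lower, where 1060 and 77 of all genes were.

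**Figure D1:**
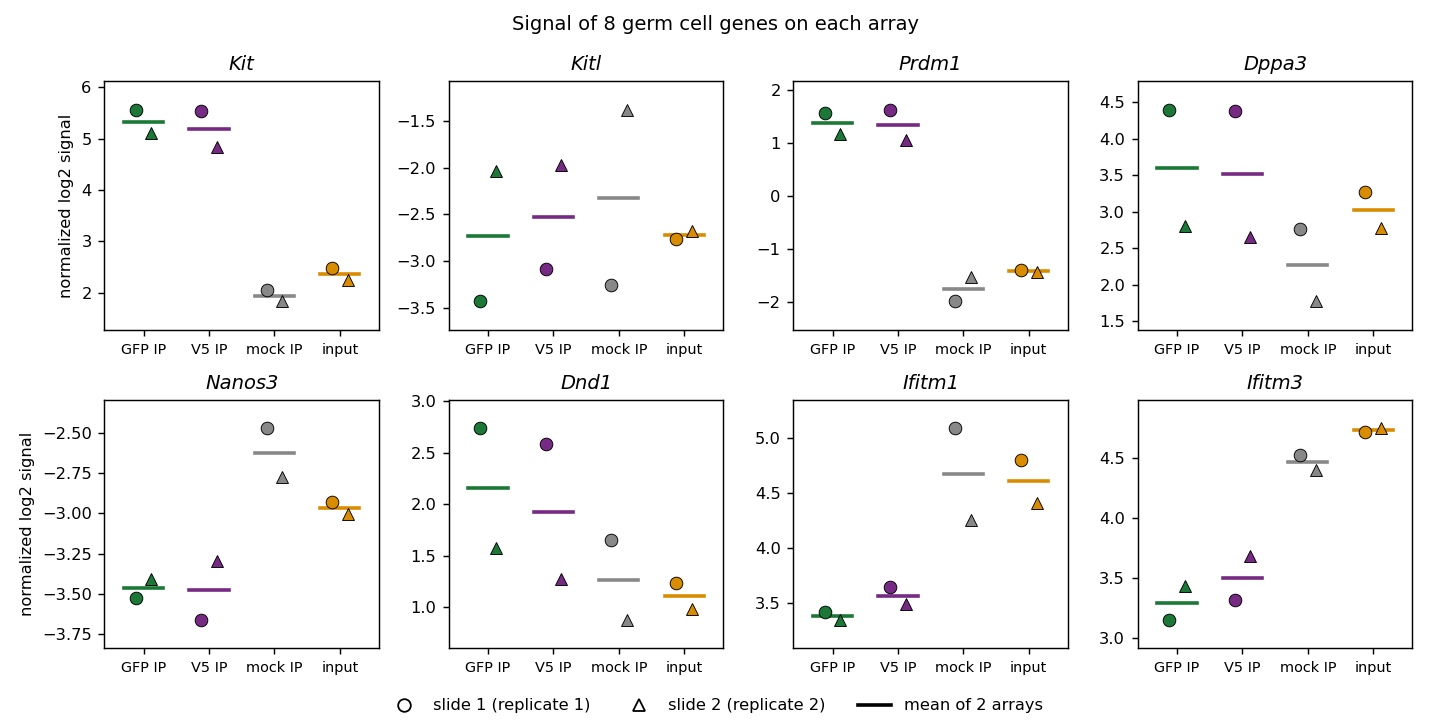
Normalized log2 signal of the 8 genes (y axis, 0 is the 75th percentile of the array) in GFP IP, V5 IP, mock IP and input; circles are replicate 1, triangles replicate 2 and bars the mean of 2 arrays, and each panel has its own y range. Kit and Prdm1 sit more than 2 log2 units higher in both tag IPs than in mock IP and input, while in the tag IPs the 2 arrays of Kitl, Dppa3 and Dnd1 lie further apart than the tag IP and mock IP means.

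Kit is the receptor tyrosine kinase that germ cells use to read the survival signal of Kit ligand. Its signal was 5.56 and 5.10 in GFP IP, 5.53 and 4.84 in V5 IP, 2.05 and 1.83 in mock IP, and 2.47 and 2.25 in input, replicate 1 first. All 4 tag IP arrays lay above all 4 others, with no overlap. Kit rose 10.5-fold in GFP IP against mock IP (log2 3.39 ± 0.31, SE, limma adjusted p = 0.00182) and 9.50-fold in V5 IP (log2 3.25 ± 0.31, adjusted p = 0.00212). These changes lie at the 99.9th and 99.8th percentile of all genes. Against input, Kit rose 7.82-fold in GFP IP (adjusted p = 0.00180) and 7.08-fold in V5 IP (adjusted p = 0.00216). Mock IP lay at -0.42 ± 0.31 against input, which did not pass (adjusted p = 0.361). Without mock IP replicate 1 Kit was 11.3-fold higher in GFP IP (adjusted p = 0.0170) and 10.2-fold higher in V5 IP (adjusted p = 0.0199). Kit kept its call in all 17 alternatives of each of these 4 comparisons.

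The Kit probe was spotted 10 times on each array, which shows the precision of a single array. The 10 spots of GFP IP replicate 1 lay between 5.46 and 5.66, and those of mock IP replicate 1 between 1.93 and 2.12. The SD over spots was between 0.05 and 0.07 on all 8 arrays, while the SD between the 2 arrays of a group was 0.32 in GFP IP, 0.49 in V5 IP, 0.15 in mock IP and 0.16 in input. The arrays of a group thus differed by more than the spots of an array.

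**Figure D2:**
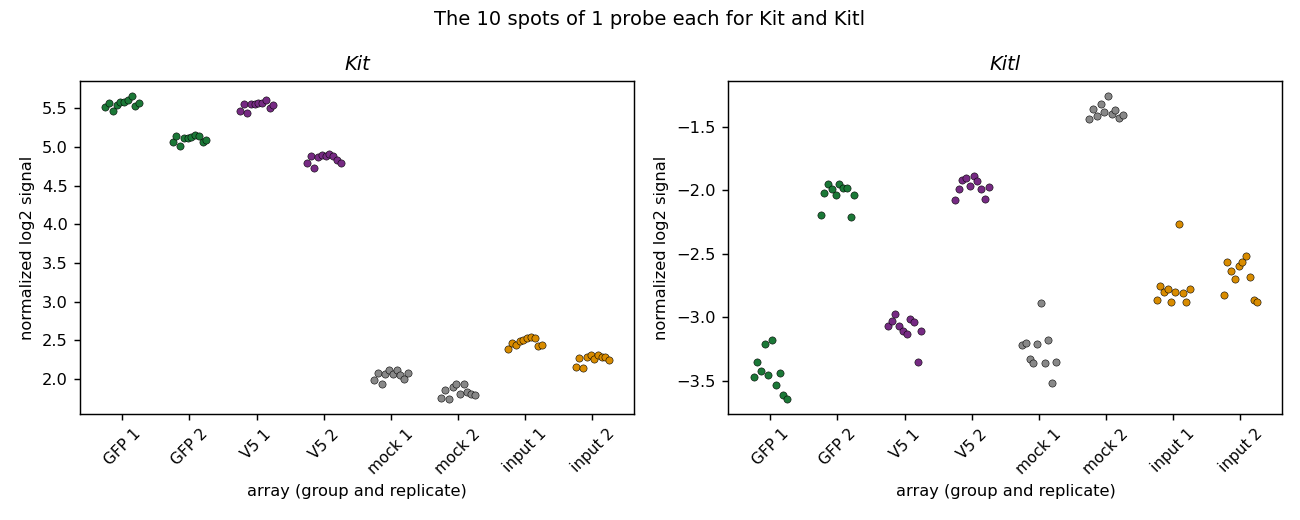
Normalized log2 signal (y axis) of each of the 10 spots of 1 Kit probe and 1 Kitl probe on the 8 arrays (x axis, group and replicate). The Kit spots of an array lie within 0.05 to 0.07 (SD) of each other, and for Kitl replicate 2 lies above replicate 1 in all 3 IP groups.

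Kitl encodes Kit ligand, also called stem cell factor, which in the embryo is made by the cells around the germ cells. Its brighter probe read -3.43 and -2.04 in GFP IP, -3.09 and -1.97 in V5 IP, -3.26 and -1.38 in mock IP, and -2.76 and -2.68 in input, replicate 1 first. The groups overlapped, and replicate 2 was higher than replicate 1 by 1.397 in GFP IP, 1.12 in V5 IP and 1.89 in mock IP but by 0.08 in input. Over all genes these differences stand at the 97.4th, 94.8th, 98.6th and 62.5th percentile. The 10 spots of this probe had an SD of between 0.06 and 0.18 within an array. Kitl differed from mock IP by -0.41 ± 0.70 in GFP IP (adjusted p = 0.649) and by -0.21 ± 0.70 in V5 IP (adjusted p = 0.823). The 95% intervals run from -2.05 to 1.22 and from -1.84 to 1.42, which leaves out a rise as large as that of Kit. Changes of either sign inside these intervals could not be told from 0 in this fit. The block on replicate number gave an SE of 0.38, and Kitl still did not pass (adjusted p = 0.369 in GFP IP and 0.650 in V5 IP). Against input the differences were -0.01 and 0.19. The second Kitl probe was well above background on mock IP replicate 1 alone, at an intensity of 15.6, with 2.57 to 10.1 on the other arrays, so no fold is given for it. The receptor Kit thus rose in all 4 comparisons of a tag IP, while its ligand passed in none, and the difference between the 2 genes was not tested.

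Prdm1, also called Blimp1, is a transcriptional repressor that shuts down the somatic programme in the first germ cells. Its signal was 1.57 and 1.18 in GFP IP, 1.62 and 1.06 in V5 IP, -1.98 and -1.53 in mock IP, and -1.39 and -1.44 in input, replicate 1 first. No tag IP array overlapped the other 4. Prdm1 rose 8.75-fold in GFP IP against mock IP (log2 3.13 ± 0.30, adjusted p = 0.00182) and 8.58-fold in V5 IP (log2 3.101 ± 0.30, adjusted p = 0.00212), both at the 99.6th percentile of all genes. Against input it rose 6.90-fold in GFP IP (adjusted p = 0.00180) and 6.76-fold in V5 IP (adjusted p = 0.00212). On slide 1 alone it lay 3.55 above mock IP in GFP IP and 3.61 in V5 IP, and on slide 2 it lay 2.71 and 2.60 above it. Without mock IP replicate 1 the folds were 7.49 (adjusted p = 0.0173) and 7.34 (adjusted p = 0.0199). With background correction by normexp they were 5.96 and 6.05, the lowest over the alternatives against mock IP. Its call held in all 17 alternatives of each tag IP comparison.

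**Figure D3:**
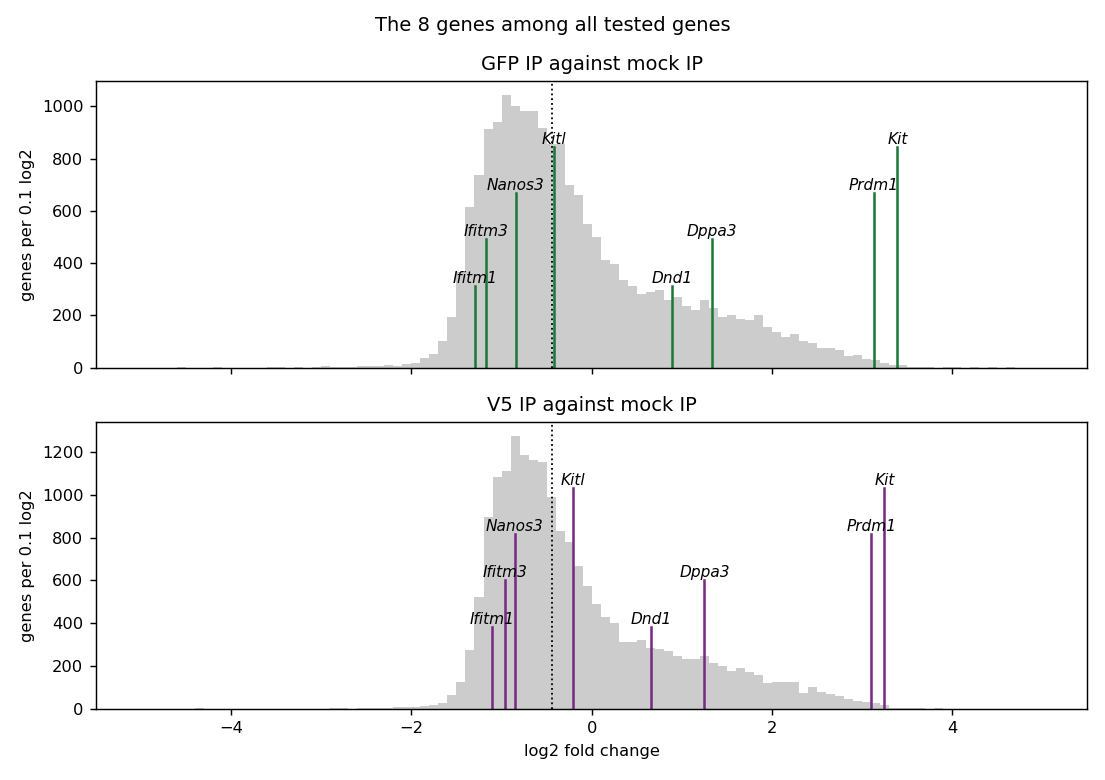
Histogram of the log2 fold change (x axis) of 19032 genes (y axis, genes per 0.1 log2) in GFP IP and V5 IP against mock IP; coloured lines mark the 8 genes, with heights chosen only to separate the names, and the dotted line is the median of all genes at -0.44. Kit and Prdm1 stand in the far right tail. Nanos3, Ifitm1 and Ifitm3 lie left of the median, from the 7.9th percentile (Ifitm1 in GFP IP) to the 30.1st (Nanos3 in GFP IP).

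Dppa3, also called Stella, is a chromatin-associated protein that protects methylated DNA in the early embryo and marks early germ cells. Its signal was 4.396 and 2.80 in GFP IP, 4.38 and 2.66 in V5 IP, 2.76 and 1.77 in mock IP, and 3.27 and 2.77 in input, replicate 1 first. Replicate 1 was higher than replicate 2 in every group, and within each slide both tag IPs lay above mock IP. In GFP IP it lay above mock IP by 1.63 on slide 1 and 1.03 on slide 2, and in V5 IP by 1.62 and 0.89. The fit without slides gave 1.33 ± 0.70 in GFP IP (adjusted p = 0.155) and 1.25 ± 0.70 in V5 IP (adjusted p = 0.183), which did not pass. With the replicate number as a block, both passed (adjusted p = 0.00826 in GFP IP and 0.0125 in V5 IP). Against input, Dppa3 differed by 0.58 in GFP IP (adjusted p = 0.564) and by 0.50 in V5 IP (adjusted p = 0.636), and on slide 2 by 0.03 and -0.12. Neither passed with the block (adjusted p = 0.161 and 0.230). Dppa3 was thus above mock IP on both slides, and on slide 2 it was close to input.

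Dnd1 is an RNA-binding protein whose loss in mice depletes the germ line. Its signal was 2.74 and 1.58 in GFP IP, 2.58 and 1.27 in V5 IP, 1.66 and 0.88 in mock IP, and 1.24 and 0.98 in input, replicate 1 first. Replicate 1 was again the higher in every group, and replicate 2 of both tag IPs lay below replicate 1 of mock IP. Dnd1 differed from mock IP by 0.89 ± 0.54 in GFP IP (adjusted p = 0.210) and by 0.66 ± 0.54 in V5 IP (adjusted p = 0.348), which did not pass. With the replicate number as a block, the GFP difference passed (adjusted p = 0.0250) and the V5 difference did not (adjusted p = 0.0726). Against input it lay at 1.05 in GFP IP (adjusted p = 0.174) and at 0.82 in V5 IP (adjusted p = 0.296), and both passed with the block (adjusted p = 0.0160 and 0.0446). All 4 tag IP arrays were above both input arrays.

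**Figure D4:**
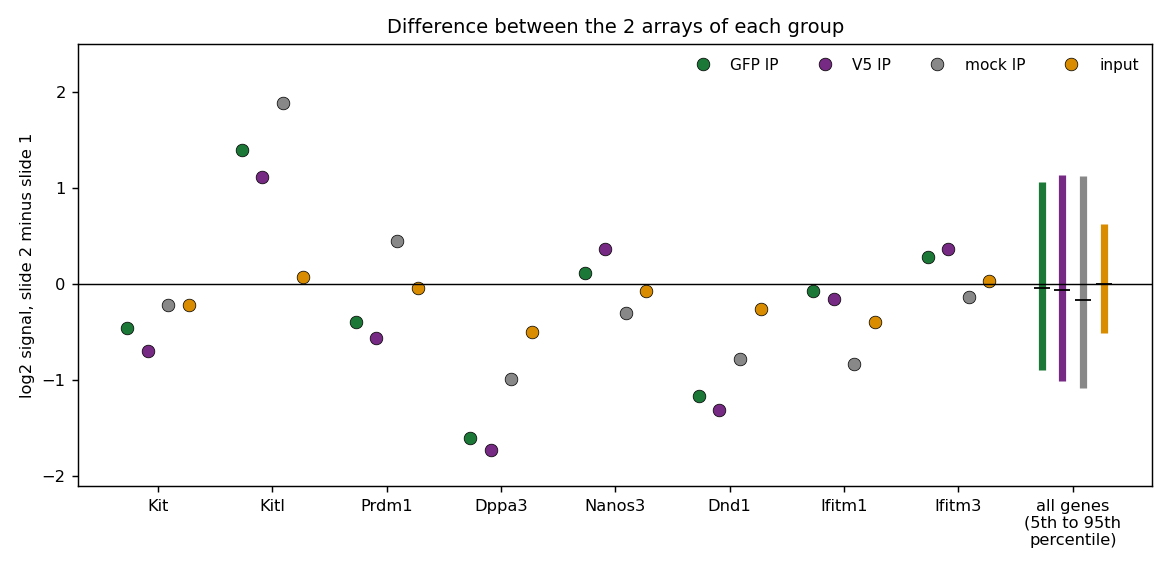
Replicate 2 minus replicate 1 (slide 2 minus slide 1, y axis, log2 signal) of each gene in GFP IP, V5 IP, mock IP and input, beside the range from the 5th to the 95th percentile of all genes with the median as a tick. Kitl lies at 1.12 to 1.89 in the 3 IP groups, Dppa3 at -1.72 to -0.99 and Dnd1 at -1.31 to -0.78, and the other genes lie within -0.83 to 0.45.

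In the tag IPs, the 3 genes without a call against mock IP in the fit without slides are those with the widest gaps between slides. Replicate 2 minus replicate 1 was -1.60 in GFP IP, -1.72 in V5 IP, -0.99 in mock IP and -0.49 in input for Dppa3. For Dnd1 it was -1.16 in GFP IP, -1.31 in V5 IP, -0.78 in mock IP and -0.26 in input. Kitl went the other way, as given above. For all genes, the range from the 5th to the 95th percentile was -0.89 to 1.06 in GFP IP, -1.005 to 1.14 in V5 IP, -1.08 to 1.12 in mock IP and -0.51 to 0.63 in input. Slide, scan and replicate number are the same split of these arrays and cannot be told apart.

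Nanos3 is an RNA-binding protein that protects migrating germ cells from cell death. It was low and lower in the tag IPs: -3.52 and -3.40 in GFP IP, -3.66 and -3.30 in V5 IP, -2.47 and -2.78 in mock IP, and -2.93 and -3.003 in input, replicate 1 first. All 4 tag IP arrays lay below the 4 others. Against mock IP it fell by 0.84 in GFP IP (log2, SE 0.24, adjusted p = 0.0292) and by 0.85 in V5 IP (SE 0.24, adjusted p = 0.0340). Relative to the median of all genes it lay at -0.40 in GFP IP and -0.41 in V5 IP, at the 30.1st and 25.1st percentile, which is inside the main peak of the array. Against input it lay at -0.50 (adjusted p = 0.156) and -0.51 (adjusted p = 0.158), which did not pass. Neither call was stable. In GFP IP it was lost without mock IP replicate 1 (adjusted p = 0.0973), GFP IP replicate 1 (0.143) or 2 (0.0845) or either input array (0.0650 each). In V5 IP it was lost without mock IP replicate 1 (0.113), V5 IP replicate 1 (0.172) or 2 (0.0504), either GFP IP array (0.0560 each) or either input array (0.0750 each). Both ended with median centring (0.0695 in GFP IP and 0.0697 in V5 IP), when normexp was used (0.961 and 0.430), in the authors' deposited table (0.0843 and 0.0870), when dim probes were kept (0.0609 and 0.0706) and when each comparison was fitted on its own groups (0.102 and 0.140). With normexp the GFP difference was -0.21. Both calls held with the replicate number as a block (adjusted p = 0.0138 in GFP IP and 0.0152 in V5 IP) and with quantile normalization (0.0484 and 0.0459). In all, the GFP call held in 7 of 17 alternatives and the V5 call in 5, and both kept their sign in all 17. Without an input array the differences stayed at -0.84 and -0.85, as input enters them only through the shared estimate of spread.

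Ifitm1 and Ifitm3 are small interferon-induced membrane proteins, once named Fragilis, that appear on cells competent to become germ cells and are also made by many other cell types. Ifitm1 read 3.42 and 3.35 in GFP IP, 3.65 and 3.49 in V5 IP, 5.09 and 4.26 in mock IP, and 4.804 and 4.41 in input, replicate 1 first. Ifitm3 read 3.15 and 3.44 in GFP IP, 3.32 and 3.68 in V5 IP, 4.53 and 4.401 in mock IP, and 4.72 and 4.75 in input. For both genes every tag IP array lay below every mock IP and input array. The Ifitm genes are closely related in sequence and lie together in the genome, so signal shared between their probes was not tested.

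Ifitm1 fell by 1.29 in GFP IP against mock IP (log2, SE 0.32, adjusted p = 0.0183) and by 1.11 in V5 IP (SE 0.32, adjusted p = 0.0343). Against input it fell by 1.22 in GFP IP (adjusted p = 0.0236) and by 1.04 in V5 IP (adjusted p = 0.0462). Ifitm3 fell by 1.17 in GFP IP against mock IP (log2, SE 0.24, adjusted p = 0.0121) and by 0.96 in V5 IP (SE 0.24, adjusted p = 0.0252). Against input it fell by 1.44 in GFP IP (adjusted p = 0.00519) and by 1.23 in V5 IP (adjusted p = 0.0105). Relative to the median of all genes, Ifitm1 lay at -0.85 and Ifitm3 at -0.73 in GFP IP against mock IP, and at -0.67 and -0.52 in V5 IP. The summed level of the fibroblast and feeder cell markers, given above, was also lower in the tag IPs than in mock IP on the same slide. Of the 10, 3 were called lower and 0 higher in each tag IP against mock IP. Of all genes, 26.5% were lower and 16.3% higher in GFP IP, and 21.4% and 14.6% in V5 IP. On slide 1 Pdgfra, among these markers, read -2.67 in GFP IP and -2.87 in V5 IP, against -3.06 in mock IP. Their part in the Ifitm values was not tested.

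Several of the Ifitm calls were lost when 1 array was left out or the processing was changed. Against mock IP, Ifitm1 in GFP IP lost its call without mock IP replicate 1 (adjusted p = 0.0676) or either GFP IP array (0.0804 and 0.0599), and Ifitm3 without GFP IP replicate 1 (0.0836). In V5 IP, Ifitm1 lost it without mock IP replicate 1 (0.122), either V5 IP array (0.110 and 0.0931) or either input array (0.0650 each). Ifitm3 in V5 IP lost it without mock IP replicate 1 (0.0883), V5 IP replicate 1 (0.133) or either input array (0.0615 each). Without mock IP replicate 1, Ifitm1 lay at -0.88 in GFP IP and -0.69 in V5 IP. Without an input array, V5 IP against mock IP stayed at -1.11 for Ifitm1 and -0.96 for Ifitm3, as input enters only through the shared estimate of spread. Against input, Ifitm1 lost its call in GFP IP when any 1 GFP IP or input array was left out (0.0737 to 0.156), and in V5 IP when any 1 array other than those of mock IP was left out (0.0624 to 0.247). Ifitm3 against input lost it in V5 IP without either input array (0.0829 and 0.0830) or V5 IP replicate 1 (0.0803), and kept it in GFP IP in all 17 alternatives. Normexp ended the calls of Ifitm1 in V5 IP against mock IP (0.10), of Ifitm3 against mock IP in GFP IP (0.0526) and V5 IP (0.118), of Ifitm1 against input in GFP IP (0.0754) and V5 IP (0.167), and of Ifitm3 in V5 IP against input (0.10). In V5 IP against mock IP, Ifitm1 also lost its call with median centring and with the authors' deposited table (0.0688 each), without the filter (0.0683) and with only the groups compared (0.0822), and Ifitm3 without the filter (0.0553) and with only the groups compared (0.103). In V5 IP against input, Ifitm1 lost it with median centring (0.0673), the authors' deposited table (0.0699), no filter (0.0859) and the mean of a gene's probes (0.0508). Both genes passed in all 4 comparisons with the replicate number as a block (adjusted p from 0.00131 to 0.0100).

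**Figure D5:**
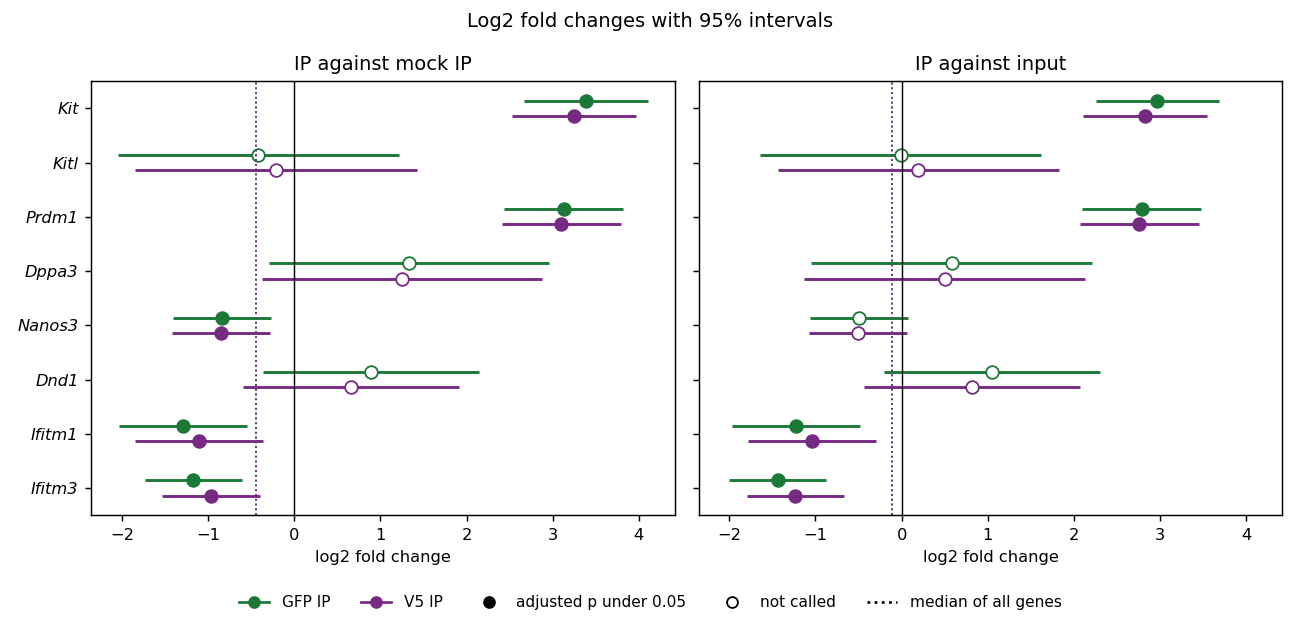
Log2 fold changes (x axis) with 95% intervals of the 8 genes in GFP IP and V5 IP against mock IP (left) and against input (right); filled points have an adjusted p under 0.05 and dotted lines are the median of all genes. Kit and Prdm1 lie between 2.76 and 3.39 in all 4 comparisons, Ifitm1 and Ifitm3 between -1.44 and -0.96, and the intervals of Kitl, Dppa3 and Dnd1 span 0 in all 4, as do those of Nanos3 against input.

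Over input, Kit and Prdm1 were again called higher and Ifitm1 and Ifitm3 lower, and Nanos3 was not called. Whether a gene's change over input differed from its change over mock IP was not tested. Against input, GFP IP had 2 genes higher and 2 lower, where 16.0% and 16.8% of all genes were. V5 IP had 2 higher and 2 lower, where 14.1% and 13.7% of all genes were. Both arrays of GFP IP lay above both of input for 3 genes (31.7% of all genes) and below both for 3 (41.2%), and those of V5 IP for 3 (30.7%) and 3 (39.6%). The tag IPs enter both kinds of comparison, so the folds over mock IP and over input are not independent.

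The mock IP itself was set against input to show how far the IgG background departs from total RNA. None of the 8 genes was called in either direction by limma, where 6.63% of all genes were higher and 4.03% lower, and 0 of the 8 had an unadjusted p under 0.05. The differences ran from -0.75 for Dppa3 (adjusted p = 0.471) to 0.40 for Kitl (adjusted p = 0.709). On slide 2 alone Kitl lay 1.31 above input in mock IP, and on slide 1 it lay at -0.50. With the replicate number as a block, 0 of the 8 were called, where 4068 of all 19032 genes were higher and 2539 lower.

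The GFP and V5 antibodies bind the same fusion protein and were compared to see whether the genes differ between them. By limma 0 of the 8 genes and 0 of all 19032 genes (0% of them) differed, with 0 of the 8 and 187 of all genes at an unadjusted p under 0.05. The difference, GFP IP minus V5 IP, was 0.14 for Kit with a 95% interval from -0.58 to 0.86, and 0.03 for Prdm1 with an interval from -0.66 to 0.72. For Ifitm1 it was -0.18 (interval from -0.92 to 0.56) and for Ifitm3 -0.21 (from -0.77 to 0.36). For Nanos3 the difference was 0.01 (interval from -0.56 to 0.58) and for Dnd1 0.23 (from -1.03 to 1.49). The intervals of Kitl (from -1.84 to 1.43) and Dppa3 (from -1.55 to 1.71) were the widest in this fit, which holds the spread between slides. Within slides Dppa3 differed by 0.02 and 0.14 and Kitl by -0.34 and -0.07, and with the replicate number as a block the SE was 0.31 for Dppa3 and 0.38 for Kitl, against 0.70 for each without it.

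The signals and transcription factors that place germ cells in the embryo gave calls in both directions. Of 26 genes of the germ cell fate list, all tested, 10 were higher and 4 lower in GFP IP against mock IP, and 10 were higher and 2 lower in V5 IP. Over all genes tested, GFP IP had 16.3% higher and 26.5% lower, and V5 IP had 14.6% and 21.4%. The median log2 fold change of the list was 0.55 in GFP IP and 0.52 in V5 IP, against -0.44 for all genes. Against input 12 were higher and 2 lower in GFP IP, where 16.0% and 16.8% of all genes were. In V5 IP against input 11 were higher and 2 lower, where 14.1% and 13.7% of all genes were. Smad1, which carries bone morphogenetic protein signals to the nucleus, rose 7.98-fold in GFP IP (adjusted p = 0.00176) and 7.17-fold in V5 IP (adjusted p = 0.00212). Sox2, a transcription factor of pluripotent cells, rose 7.16-fold (adjusted p = 0.00270) and 7.26-fold (adjusted p = 0.00310). Bmp4, the ligand that induces germ cell fate, fell by 1.31 on the log2 scale in GFP IP (adjusted p = 0.00692) and by 1.09 in V5 IP (adjusted p = 0.0162), and lost the V5 call without V5 IP replicate 1 (0.0789), with only the groups compared (0.0755) or with normexp (0.0895), which also ended the GFP call (0.0547). Smad9, a relative of Smad1, fell by 1.27 in GFP IP (adjusted p = 0.0145) and by 1.01 in V5 IP (adjusted p = 0.0325), while in V5 IP against input it lay at -0.39 (adjusted p = 0.342). It lost the GFP call without mock IP replicate 1 (0.0665) or either GFP IP array (0.0530 and 0.0655). It lost the V5 call without mock IP replicate 1 (0.129), either V5 IP array (0.0974 and 0.113) or either input array (0.0686 each), and in GFP IP it read 0.09 with normexp. The V5 call also ended with normexp (0.577), quantile normalization (0.0660), median centring (0.0719), the authors' deposited table (0.104), no filter (0.0663) and only the groups compared (0.0952). With 1 array left out, the higher count was lowest at 5 in GFP IP, without mock IP replicate 1 or GFP IP replicate 1. In V5 IP it was lowest at 4, without mock IP replicate 1 or V5 IP replicate 1, and it also fell by over 1.5 times without either input array. The lower count ran from 1 to 5 in GFP IP and from 0 to 5 in V5 IP. Over all genes the higher count fell too without each of the arrays just named, and the lower count also varied with the array left out. These changes are therefore not particular to the list. With the replicate number as a block, 13 genes of the list were higher and 5 lower in GFP IP, and 12 and 5 in V5 IP. Over all 19032 genes the block gave 3969 higher and 7645 lower in GFP IP, and 3693 and 7311 in V5 IP.

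The PRDM relatives of Prdm1 gave higher calls in numbers near the shares of all genes. Of 13 listed genes 11 had a probe and 10 were tested, of which 2 were higher in GFP IP against mock IP and 1 in V5 IP, with 0 lower in either (16.3% and 14.6% of all genes were higher). Against input 2 were higher and 1 lower in each tag IP. The shares of all genes were 16.0% and 16.8% in GFP IP against input, and 14.1% and 13.7% in V5 IP. Prdm16, a regulator of brown fat and blood stem cells, rose 3.27-fold in GFP IP (adjusted p = 0.0262) and 2.97-fold in V5 IP (adjusted p = 0.0397). Its GFP call was lost without GFP IP replicate 1 (0.131) or either mock IP array (0.0707 and 0.123). Its V5 call was lost without V5 IP replicate 1 (0.175), either mock IP array (0.0996 and 0.159) or either input array (0.0647 each), and both with normexp (0.123 in GFP IP and 0.172 in V5 IP). With the replicate number as a block, 3 of the list were higher and 1 lower in both IPs. Of all 19032 genes, 3969 were then higher and 7645 lower in GFP IP, and 3693 and 7311 in V5 IP. The median of the list was 0.02 in GFP IP and -0.10 in V5 IP.

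Downstream of Kit, genes of its signalling chain were called in both directions against mock IP, with 1 lower call against input. Of 37 listed genes on the array 36 were tested, of which 15 were higher and 6 lower in GFP IP against mock IP, and 14 were higher and 6 lower in V5 IP. The same calls took in 16.3% (higher) and 26.5% (lower) of all genes in GFP IP, and 14.6% and 21.4% in V5 IP. Against input 13 were higher and 1 lower in GFP IP, where 16.0% and 16.8% of all genes were. In V5 IP against input 12 were higher and 1 lower, where 14.1% and 13.7% of all genes were. The median of the list against mock IP was 0.53 in GFP IP and 0.44 in V5 IP, against -0.44 for all genes. Nras, a small GTPase, rose 5.95-fold (adjusted p = 0.00296) in GFP IP and 5.40-fold in V5 IP (adjusted p = 0.00404), but its second kept probe moved the other way in V5 IP. Hras, a relative of Nras, fell by 1.33 in GFP IP (adjusted p = 0.00960) and by 1.17 in V5 IP (adjusted p = 0.0183), but in V5 IP against input it lay at 0.03 (adjusted p = 0.946). Ptpn6, a phosphatase that damps Kit signalling, fell by 1.28 (adjusted p = 0.00993) and by 1.13 (adjusted p = 0.0186). Hras and Ptpn6 lost the GFP call without GFP IP replicate 1 (0.0686 for Hras and 0.0673 for Ptpn6). In V5 IP both lost the call without V5 IP replicate 1 (0.0952 and 0.103) or mock IP replicate 1 (0.0658 and 0.0677), and Ptpn6 also without either input array (0.0507 each). Normexp (0.0855 and 0.0884) and only the groups compared (0.0664 and 0.0720) ended both V5 calls too. With 1 array left out, the higher count was lowest at 8 in GFP IP, without mock IP replicate 1 or GFP IP replicate 1, and at 6 in V5 IP, without mock IP replicate 1, with a fall of over 1.5 times without V5 IP replicate 1 too. The lower count was 0 in GFP IP without GFP IP replicate 1, and 0 in V5 IP without mock IP replicate 1 or V5 IP replicate 1. It also fell by over 1.5 times in GFP IP without mock IP replicate 1, and in V5 IP without either input array. Without each array named for these counts, fewer of all genes were called as well. The falls are therefore not particular to this list.

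Relatives and partners of Nanos3, Dnd1 and Dppa3 gave more higher than lower calls against mock IP, where Nanos3 itself was lower. Of 10 genes, Nanos2 and A1cf were not tested, and of the other 8 there were 6 higher and 1 lower in GFP IP against mock IP, and 6 higher and 0 lower in V5 IP. Of all genes, 16.3% were higher in GFP IP and 14.6% in V5 IP. Against input 4 of the 8 were higher and 0 lower in each tag IP. The shares of all genes were 16.0% and 16.8% in GFP IP against input, and 14.1% and 13.7% in V5 IP. The median of the list against mock IP was 1.67 in GFP IP and 1.57 in V5 IP, against -0.44 for all genes. Tial1, an RNA-binding protein needed for germ cell survival in mice, rose 7.23-fold in GFP IP (adjusted p = 0.00182) and 6.64-fold in V5 IP (adjusted p = 0.00212). Cpeb1, a regulator of poly(A) tail length in oocytes, rose 4.99-fold (adjusted p = 0.00587) and 4.38-fold (adjusted p = 0.00937). The V5 call of Cpeb1 was lost without V5 IP replicate 1 (0.05003) or mock IP replicate 1 (0.0689). With 1 array left out, the higher count in V5 IP fell most without V5 IP replicate 1, and by over 1.5 times without mock IP replicate 1 too. Over all genes the higher count in V5 IP also fell without either of these arrays.

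Of 5 Ifitm relatives 3 were lower and 0 higher in both IPs against mock IP, and 2 did not pass. Among all genes 26.5% were lower and 16.3% higher in GFP IP, and 21.4% and 14.6% in V5 IP. Against input 2 of the 5 were lower and 0 higher in each tag IP. The shares of all genes were 16.8% lower and 16.0% higher in GFP IP against input, and 13.7% and 14.1% in V5 IP. Ifitm2 fell by 1.20 in GFP IP (adjusted p = 0.0102) and by 0.93 in V5 IP (adjusted p = 0.0245). Ifitm5, known from bone, fell by 1.05 (adjusted p = 0.0165) and by 0.91 (adjusted p = 0.0307), while in V5 IP against input it lay at -0.30 (adjusted p = 0.403). In GFP IP, Ifitm2 lost its call without GFP IP replicate 1 (0.0715), and Ifitm5 without mock IP replicate 1 (0.0561) or either GFP IP array (0.0951 and 0.0510). In V5 IP, Ifitm2 lost it without mock IP replicate 1 (0.0778), either V5 IP array (0.110 and 0.0653) or either input array (0.0613 each), and Ifitm5 when any 1 array other than mock IP replicate 2 was left out (0.0502 to 0.111). Normexp (0.114 for Ifitm2 and 0.261 for Ifitm5), median centring (0.0502 and 0.0659), no filter (0.0544 and 0.0650) and only the groups compared (0.112 and 0.121) also ended both V5 calls, and the authors' deposited table that of Ifitm5 (0.0708). The GFP call of Ifitm5 ended with normexp (0.527) and with only the groups compared (0.0539). With 1 array left out, the lower count of the list fell in several fits of both IPs. In those fits the lower count over all genes fell too.

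The gene whose signal followed each of the 8 most closely over the 8 arrays was taken from 15619 named genes, as a description. For Prdm1 this was Amd1 (Pearson r = 0.9997 over 8 arrays), and for Kit it was Tle4 (r = 0.999). Amd1 had a log2 fold change of 2.67 in GFP IP and 2.69 in V5 IP against mock IP, and Tle4 of 2.78 and 2.65. For Dppa3 it was Nsmce1 (r = 0.997), for Dnd1 Adpgk (r = 0.996), for Nanos3 Krba1 (r = 0.998), for Ifitm1 Asb9 (r = 0.998), for Ifitm3 Nmnat1 (r = 0.999) and for Kitl Mylk (r = 0.967). The 8 arrays share 4 groups and 2 slides, and each gene was picked as the highest r of all those compared.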

How the data were processed

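RNA of 8 samples was hybridised to 1-colour Agilent arrays, and per the file headers these were read with Feature Extraction 9.1.3.1. The deposited processed intensity is a background-corrected linear value, per the file headers, and the mean and background intensities served for normexp (offset 50). A whole-series table deposited by the authors holds a normalized signal and a quality score per spot, per the file headers. The score only matched its 45018 entries to spots, within 1e-05, and the signal served as an alternative as log2(signal + 0.1).

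Spots of a probe were averaged without outlier spots, on the log2 scale, and the 75th percentile of the gene probes was subtracted per array. A probe was kept if some group had it well above background on its 2 arrays (28104 of 41174), and the brightest stood for its gene (19032 genes). The arrays were fitted together with limma 3.58.1 in R 4.3.3 (lmFit, eBayes, two-sided, Benjamini-Hochberg over all genes, call at adjusted p under 0.05). SE and intervals are from this fit unless the block is named. The fit was also run on simulated data with independent noise on each array and no slide effect. That run does not test the fit for arrays paired by slide. The number of arrays limits the precision.

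Slide 1 held the 4 arrays numbered replicate 1 and slide 2 those numbered replicate 2. Deviations from the group means correlated between same-numbered arrays in all 6 pairs (Pearson r from 0.299 to 0.778), so the numbers pair the arrays. Alternatives were normexp, quantile normalization, median centring, the authors' table, no filter, the mean of a gene's probes, a fit on all probes, the replicate number as a block, only the groups compared, and leaving out each array.

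Genes were named through the RefSeq table of GRCm38.p6, or by the name in the file. No coordinates are printed, because build and probe positions are not given in the sources used here. The text names the 8 genes and, from each list, the 2 highest and 2 lowest called in V5 IP against mock IP, and 1 most similar gene. A gene that this rule names is not reported here. Genes, lists and rules were chosen with earlier results of these data known.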

Additional observations from a re-analysis of the deposited data

How the results depend on the processing

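Kit and Prdm1 were the 2 genes called higher in each of the 4 comparisons of a tag IP, and both kept their call and direction in all 17 alternatives. The number of the 8 genes called higher in GFP IP against mock IP was 4 with the replicate block, which added Dppa3 and Dnd1, and it stayed at 2 with 1 array left out. The number called lower in V5 IP against mock IP was 3, and became 0 with normexp, 1 with centring, 1 with the authors' table, 0 with no filter and 0 with only the groups compared, and ran from 0 to 3 with 1 array left out. In GFP IP against mock IP it was 3, with 1 by normexp and 0 to 3 with 1 array left out. In V5 IP against input it was 2, with 0 by normexp, 1 with centring, with the authors' table, with no filter and with the mean of a gene's probes, and 0 to 2 with 1 array left out. In GFP IP against input it was 2, with 1 by normexp and 1 to 2 with 1 array left out. Over all genes the lower calls fell too. In V5 IP against mock IP they went from 4066 to 13 with normexp, 1557 with centring, 1520 with the authors' table and 382 with only the groups compared. With no filter they were 978 of 27677. Normexp took them from 5043 to 579 in GFP IP against mock IP. Against input it took them from 2599 to 352 in V5 IP and from 3203 to 489 in GFP IP. No filter tests more genes, and fewer arrays leave fewer degrees of freedom. The cause of the other changes was not tested.

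Among the differences whose sign turned, that of Smad9 in GFP IP against mock IP had passed. It was 0.0914 with normexp (adjusted p = 0.982). The others had not passed. Kitl in V5 IP against input was -0.35 with normexp. In GFP IP against input it was 0.13 with quantile normalization, 0.0886 with centring and 0.14 with the authors' table. In mock IP against input, Nanos3 was -0.18 with normexp, and Ifitm1 was -0.18 with quantile normalization and -0.00973 with centring. In GFP IP against V5 IP with normexp, Kitl was 0.13, Prdm1 -0.0205 and Dppa3 -0.0217. With 1 array left out, Kitl ran from -1.36 to 0.53 in GFP IP and from -1.15 to 0.73 in V5 IP against mock IP, from -0.71 to 0.69 and from -0.37 to 0.75 against input, and from -0.54 to 1.35 in mock IP against input. Dppa3 ran from -0.22 to 1.38 in GFP IP and from -0.36 to 1.36 in V5 IP against input. In mock IP against input Dnd1 ran from -0.23 to 0.55 and Ifitm1 from -0.35 to 0.48. In GFP IP against V5 IP Kit ran from -0.20 to 0.49, Kitl from -0.90 to 0.49, Prdm1 from -0.25 to 0.31, Dppa3 from -0.78 to 0.94, Nanos3 from -0.17 to 0.19 and Dnd1 from -0.43 to 0.89.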
